A study of Mus musculus with 1790 samples.

Results

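The cells described were the progenitor-like cells of the preoptic area (POA) and of the caudal ganglionic eminence (CGE) of the mouse embryo at E14.5 (E, days of embryonic development), 1875 of the 6221 droplet cells of the series. A cell was chosen by 14 genes. It was called progenitor-like when its summed counts of 7 progenitor genes (Top2a and Mki67 of dividing cells, Fabp7, Sox9, Nes, Hes1 and Hes5 of radial glia) exceeded those of 7 neuronal genes (Stmn2, Dcx, Tubb3, Dlx5, Dlx6, Gad1 and Gad2). In the POA library 539 of 2106 cells met this rule, 25.6% (95% interval 23.7 to 27.5), and in the CGE library 1336 of 4115 cells did, 32.5% (31.0 to 33.9).

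The study examined how neurogliaform cells, a type of cortical inhibitory interneuron, arise from the embryonic POA, and used the CGE as another source of interneurons. For each region, tissue of untreated embryos labelled C57BL/6 and wild type was microdissected at E14.5, dissociated and captured in droplets with the 10x Single Cell 3′ v2 kit, and the authors then took out clusters of vascular, red blood, Cajal-Retzius, immune and glutamatergic cells. Each region is 1 library, and neither the number nor the sex of the embryos pooled is given. Region therefore cannot be told apart from dissection, embryos and library, no test between regions was possible, and each value carries an interval that covers counting error only. The study's methods name C57BL/6 mice in one place and CD1 mice in another for the droplet experiments. They also give more recovered cells for POA than for CGE, the opposite order from the 2 tables, and fewer for CGE than its table holds, so a doubt remains about the cell numbers and the tables were taken as labelled. In the library labelled POA the ventral factor Nkx2-1 was the higher, at 362 and 125 CPM, and Hmx2 and Hmx3, factors of the neurogliaform lineage in POA, had 40 and 19 counts against 1 and 0 in the library labelled CGE (CPM are explained below).

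In the ventral forebrain, radial glia line the ventricle, divide and give rise to basal progenitors and then to post-mitotic GABAergic neurons. Position in the neuroepithelium is set by secreted signals such as Shh, Wnt and Fgf ligands and is recorded by transcription factors, with Nkx2-1 in the ventral, medial domains and Nr2f1, Nr2f2, Gsx2 and Pax6 toward the lateral and caudal ones. The POA lies at the border of telencephalon and hypothalamus, and the CGE is the caudal part of the ganglionic eminences.

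Median depth was similar in both sets. Progenitor-like cells held 3904 to 41866 UMIs (unique molecular identifiers, 1 per captured transcript molecule) in POA, with a median of 7589, and 2512 to 34625 in CGE, with a median of 7100.5. Median genes per cell were 2942 and 2796. Mitochondrial genes took 3.65% of counts in POA and 3.09% in CGE, and haemoglobin genes, left out of all totals here, 0.181% and 0.0530%. The libraries shared 12 cell barcodes, which belonged to 0 POA and 2 CGE progenitor-like cells. Xist, transcribed from the inactive X chromosome of female cells, was at 1267 CPM in POA and 829 CPM in CGE, and the Y-linked Ddx3y at 10.9 and 18.4 CPM. CPM are counts scaled to 1e+06 in the summed counts of all progenitor-like cells of a library.

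The 14 genes of the rule describe how the cells were chosen and are no finding. Median summed counts of the progenitor genes were 45 per POA and 37 per CGE cell, against 7 and 6 counts of the neuronal genes. Cells just inside the cut, 1 or 2 counts above it, numbered 24 in POA (median sums 9.5 against 8) and 71 in CGE (11 against 10). Just outside it, 1 or 2 counts below, lay 28 POA cells (11.5 against 13.5) and 70 CGE cells (10 against 11). The progenitor sum was at least 2 times the neuronal sum in 415 POA cells (77.0%) and 1087 CGE cells (81.4%). Among the rule genes, the brain lipid-binding protein Fabp7 was at 5639 CPM in POA and 7431 CPM in CGE, the Notch effector Hes5 at 551 and 454 CPM, the glial factor Sox9 at 347 and 259.5 CPM and the intermediate filament Nes at 210.4 and 188 CPM. On the neuronal side, the microtubule regulator Stmn2 was at 409.7 CPM in POA and 153 CPM in CGE, and Gad1 and Gad2, which make GABA, were at 61.9 CPM or less in both.

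**Figure D1:**
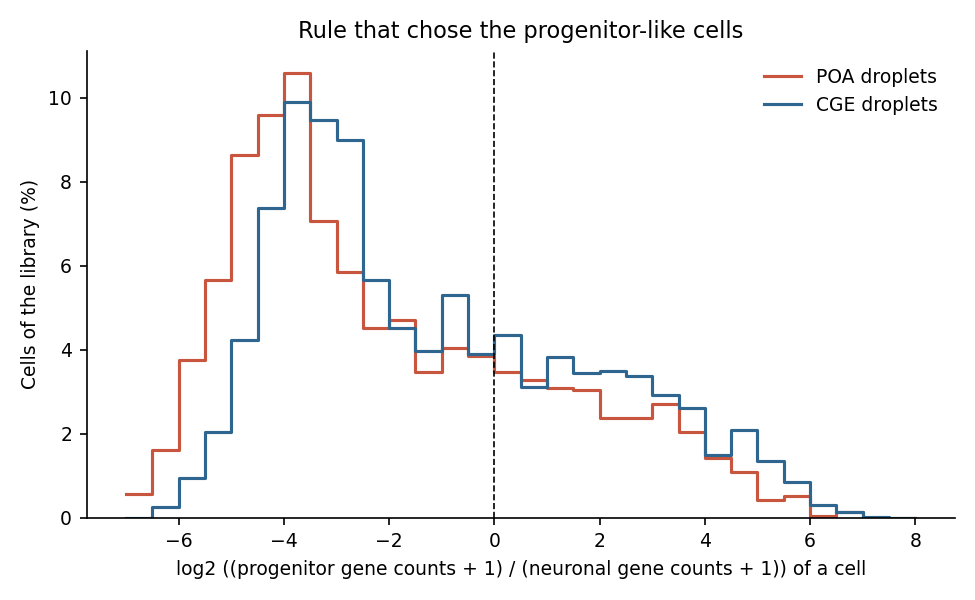
The rule by cell. The x axis is log2 of the summed counts of the 7 progenitor genes plus 1 over those of the 7 neuronal genes plus 1, the y axis the percent of cells of each droplet library per bin, and the dashed line marks equal sums. Both libraries show 1 broad peak left of the line and a long shoulder right of it, which holds the 539 POA and 1336 CGE progenitor-like cells.

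Genes outside the rule were used to check the label. Of the radial glia list, 15 genes not in the rule, the median cell held 19 UMIs in POA and 26 in CGE after thinning (each cell reduced at random to 3200 UMIs), against 3 and 4 in the post-mitotic GABAergic-like cells, those in which the neuronal genes had the larger sum. The list of 12 neuronal genes not in the rule gave the opposite order, with medians of 15 and 11 UMIs in progenitor-like and 34 and 34 in post-mitotic cells. The stem cell factor Sox2 was at 264 CPM in POA and 261 CPM in CGE and was found in 57.9% and 54.7% of thinned cells. The glial filament Vim was at 1113 and 920.1 CPM and the glutamate transporter Slc1a3 at 324 and 273 CPM. Radial glia genes were thus present in both sets of cells, and both sets also carried neuronal transcripts, more of them in POA.

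Markers of other cell types were not equal. After thinning, a count of any of the glutamatergic list (9 genes) was found in 26.9% of POA and 14.7% of CGE progenitor-like cells, of the Cajal-Retzius list (6 genes) in 23.4% and 3.93%, and of the choroid plexus and ependyma list (6 genes) in 24.5% and 8.98%. Summed over each list, levels were 242 and 136 CPM, 113 and 15.0 CPM, and 96.4 and 29.1 CPM. The vascular list (10 genes) was at 37.6 and 35.3 CPM, the immune list (8 genes) at 4.93 and 4.52 CPM, and the red blood list without haemoglobin (5 genes) at 1.44 and 0.982 CPM. Few genes of these lists reached 20 CPM. In POA and CGE, in that order, the proneural factor Neurog2 was at 165 and 66.4 CPM, the LIM homeodomain factors Lhx5 at 43.2 and 0.786 CPM and Lhx1 at 22.0 and 0.491 CPM, and the homeodomain factor Otx2 at 64.5 and 11.3 CPM. Of the genes compared, 1 of 1 glutamatergic, 2 of 3 Cajal-Retzius, 1 of 2 choroid and 0 of 1 vascular genes were more than 2-fold higher in POA, and 0 of any list in CGE. Several defining markers were near 0: Slc17a7 and Kcne2 had 0 counts in both, Trp73 1 and 4 counts, and Ttr 2 and 2 counts. Slc17a6, a vesicular glutamate transporter, was at 18.9 and 2.55 CPM. The part of such cells in the differences given here was not tested. Several leading POA genes are given also without the cells that hold 2 or more counts of these markers.

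At most genes the progenitor-like cells of both regions differed little. Of 6878 genes that reached 20 CPM in either library, 6288 (91.4%) differed by less than 1.5-fold with 10 CPM added to both, and the median log2 fold change of POA over CGE was 0.01. By more than 2-fold on the same scale, 126 genes were higher in POA (1.83%) and 38 in CGE (0.552%). These percentages are the background against which the counts of each gene list are read. All log2 values below are log2 fold changes of POA over CGE with 10 CPM added, which understates the change of low genes, and ratios are of the CPM without it.

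**Figure D2:**
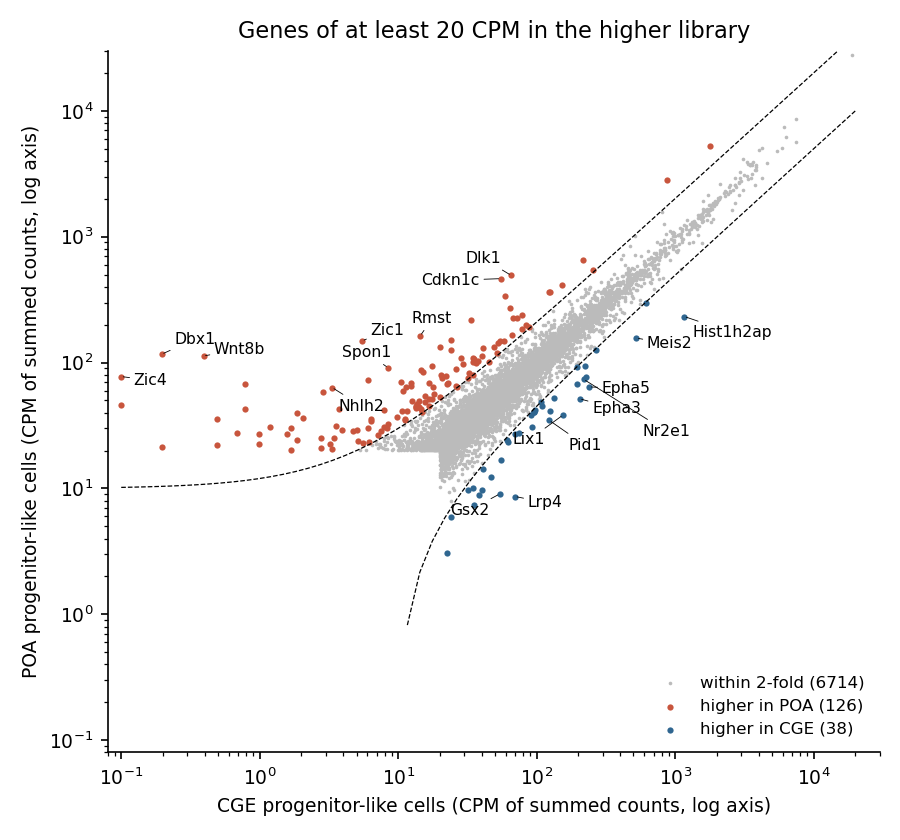
CPM of the summed counts of progenitor-like cells for 6878 genes, CGE on the x axis and POA on the y axis, both on log scales, with values below 0.1 CPM drawn at 0.1. Dashed lines mark 2-fold after 10 CPM are added, and 9 of the 10 leading genes of each direction are named. Most genes lie on the diagonal, Dbx1, Wnt8b and Zic4 lie far to its left at 0.393 CPM or less in CGE, and Hist1h2ap and Meis2 lie to its right.

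Of the leading genes, Dbx1, Wnt8b, Zic1 and Zic4, regulators of forebrain position, had the largest log2 fold changes in POA and were at 5.50 CPM or less in CGE. The homeodomain factor Dbx1 (chromosome 7, 49631499 to 49636849, minus strand, here and below on GRCm38) was at 117 CPM (107 to 127) in POA and 0.196 CPM (0.0238 to 0.709) in CGE, where 2 counts were seen. The log2 fold change was 3.64 and the ratio 594 (164 to 4919). After thinning, a Dbx1 UMI was found in 15.4% (12.5 to 18.7) of 539 POA cells and in 0 of 1169 CGE cells, which allows a share of up to 0.257% at a floor of 3 cells (exact upper limit 0.315%). Without thinning the shares were 23.9% and 0.0749%. The post-mitotic cells of the same libraries, thinned alike from median depths of 7564.5 and 5338.5 UMIs, held it in 9.05% and 0.0859%, so the gene was most frequent in the POA progenitor-like cells. Wnt8b (chromosome 19, 44493472 to 44514273, plus strand), which encodes a secreted Wnt ligand, followed with 113 CPM (104 to 123) in POA and 0.393 CPM (0.107 to 1.01) in CGE, a log2 fold change of 3.56. Its UMIs were found in 14.8% of POA and 0.0855% of CGE thinned cells, and in 4.11% and 0% of post-mitotic cells, where 0 allows a share of up to 0.129% by the same floor.

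Members of the Zic family of zinc finger factors formed another group. Zic1 (chromosome 9, 91358058 to 91365810, minus strand) was at 149 CPM (138 to 160.0) in POA and 5.50 CPM (4.15 to 7.14) in CGE, a log2 fold change of 3.36 and a ratio of 27.1 (20.6 to 36.2). It was detected in 28.9% of POA and 1.45% of CGE thinned cells (45.1% and 2.99% without thinning), and in 30.9% and 1.67% of post-mitotic cells. Its neighbour Zic4 (chromosome 9, 91362413 to 91389348, plus strand) had 77.5 CPM in POA and 0 counts in CGE, at least 263-fold higher against a floor of 3 counts over the CGE library (exact lower limit of the ratio 213), with a log2 fold change of 3.13. The 2 gene ranges overlap on opposite strands. Both Zic genes were thus at 5.50 CPM or less in CGE, and Zic1 was the more widely detected of them.

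The other leading genes of POA had mixed roles. The bHLH factor Nhlh2, known from differentiating neurons, was at 63.3 CPM in POA and 3.34 CPM in CGE (2.46), and the long noncoding RNA Rmst at 163 and 14.4 CPM (2.83). Spon1, a secreted matrix protein known from the floor plate, was at 91.0 CPM in POA and 8.44 CPM in CGE (2.45). The imprinted genes Cdkn1c, a cell cycle inhibitor, and Dlk1, a transmembrane Notch-like protein, were at 464 and 54.9 CPM and at 493 and 65.4 CPM, with log2 fold changes of 2.87 and 2.74. Where the transcription factors were in few POA cells and in almost no CGE cell, Cdkn1c was in 51.4% and 10.6% and Dlk1 in 47.9% and 14.2% of thinned cells.

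The POA genes depended in part on the cells that also held markers of other cell types. Without cells of 2 or more counts of those markers, 229 of 539 POA and 996 of 1336 CGE cells were left. The log2 fold change was then 2.13 for Dbx1, 2.56 for Wnt8b, 1.55 for Nhlh2, 3.31 for Zic1, 2.78 for Cdkn1c and 2.79 for Dlk1. Neurog2, itself one of the markers, came to 0.11. All 10 leading POA genes stayed past 2-fold, but 89 genes were then higher in POA in place of 126, of which 74 were among the 126. In CGE the number stayed at 38, of which 25 were among the first 38, and all 10 leading genes stayed past 2-fold.

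In CGE fewer genes passed 2-fold, and the folds of the 10 leading genes were smaller. The homeodomain factor Meis2 (chromosome 2, 115863064 to 116065839, minus strand) was at 157 CPM (146 to 168) in POA and 525 CPM (511 to 539.5) in CGE, a log2 fold change of -1.68 and a ratio of CGE over POA of 3.35 (3.11 to 3.62). It was found in 27.8% of POA and 73.7% of CGE thinned cells, the most widespread of the 10. Gsx2 (chromosome 5, 75075601 to 75077893, plus strand), a homeodomain factor of lateral ganglionic eminence progenitors, was at 9.04 CPM in POA and 54.0 CPM in CGE (-1.75), in 3.15% and 15.7% of thinned cells. The orphan nuclear receptor Nr2e1, which keeps neural stem cells dividing, was at 73.6 and 219 CPM (-1.45).

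Receptors made up another part of the CGE group. The ephrin receptors Epha3 (chromosome 16, 63543534 to 63864175, minus strand) and Epha5 were at 51.6 and 204 CPM and at 64.1 and 239.7 CPM, in that order of regions, with log2 fold changes of -1.80 and -1.75. Epha3 was found in 12.6% of POA and 44.1% of CGE thinned cells and in 10.3% and 24.6% of post-mitotic cells. Lrp4, a receptor of the LDL receptor family that modulates Wnt signals, was at 8.63 and 69.9 CPM (-2.10). Lix1 and Pid1 were at 38.2 and 154 CPM (-1.77) and at 34.7 and 123 CPM (-1.58). Hist1h2ap, an H2A histone gene with near-identical copies between which the assignment of reads is uncertain, was at 232 and 1165 CPM (-2.28), the largest log2 fold change with 10 CPM added. By the ratio of CPM, Lrp4 (8.10) and Gsx2 (5.97) came before it (5.02). None of the 10 leading CGE genes was absent from POA, where the lowest, Lrp4, had 8.63 CPM.

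Transcription factors of position were described by 2 lists. Of 24 preoptic and ventral factors 10 reached 20 CPM, and 6 of these were more than 2-fold higher in POA and 0 in CGE, with a median log2 fold change of 1.38 against 0.01 over all genes. Nkx2-1, the homeodomain factor of medial eminence and preoptic progenitors (chromosome 12, 56531958 to 56536908, minus strand), was at 362 CPM (346 to 379.8) in POA and 125 CPM (119 to 132) in CGE, a log2 fold change of 1.46. It was not confined to POA, since 55.3% of POA and 20.8% of CGE thinned cells held it. Dbx1, Otx2 (1.81), Onecut2 (43.2 and 3.73 CPM, 1.95), Otp (22.4 and 0.982 CPM, 1.56) and Isl1 (49.1 and 14.0 CPM, 1.30) were the other 5. The eye field and hypothalamic factors Rax, Six6 and Nkx2-4 were below 20 CPM in POA, at 11.9, 10.5 and 11.5 CPM, and had 0 counts in CGE. Lhx6, a factor of medial eminence neurons, was at 21.8 and 22.5 CPM (-0.03). Without the cells that held other-cell markers, Nkx2-1 was at 1.52, while Otx2, itself among those markers, Isl1 and Otp came to 0.91, 0.66 and 0.99, under 2-fold.

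The list of 22 caudal, lateral and dorsal factors moved both ways. Of 18 compared, 3 were more than 2-fold higher in POA (among them Zic1 and Zic4) and 3 in CGE (Gsx2, Pax6 and Meis2), and the median log2 fold change was -0.03. Pax6, a factor of dorsal and lateral radial glia, was at 45.2 CPM (39.4 to 51.6) in POA and 109 CPM (102 to 115) in CGE (-1.10). The nuclear receptor Nr2f1, graded from caudal to rostral in the forebrain, was at 291 CPM (276 to 306) in POA and 554 CPM (539.7 to 569) in CGE (-0.91), just under 2-fold. Its relative Nr2f2, a marker of CGE-derived interneurons, was at 205 and 272 CPM (-0.40) and was found in 36.4% and 48.4% of thinned cells, so it separated the 2 regions little. Gsx1 was at 33.7 and 17.9 CPM (0.65), Meis1 at 16.6 and 37.2 CPM (-0.83), and Emx2, Lhx2 and Prox1 differed by less than 0.5 on the log2 scale. Tfap2c, known from basal progenitors, did not reach 20 CPM, with 0.616 and 14.8 CPM.

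**Figure D3:**
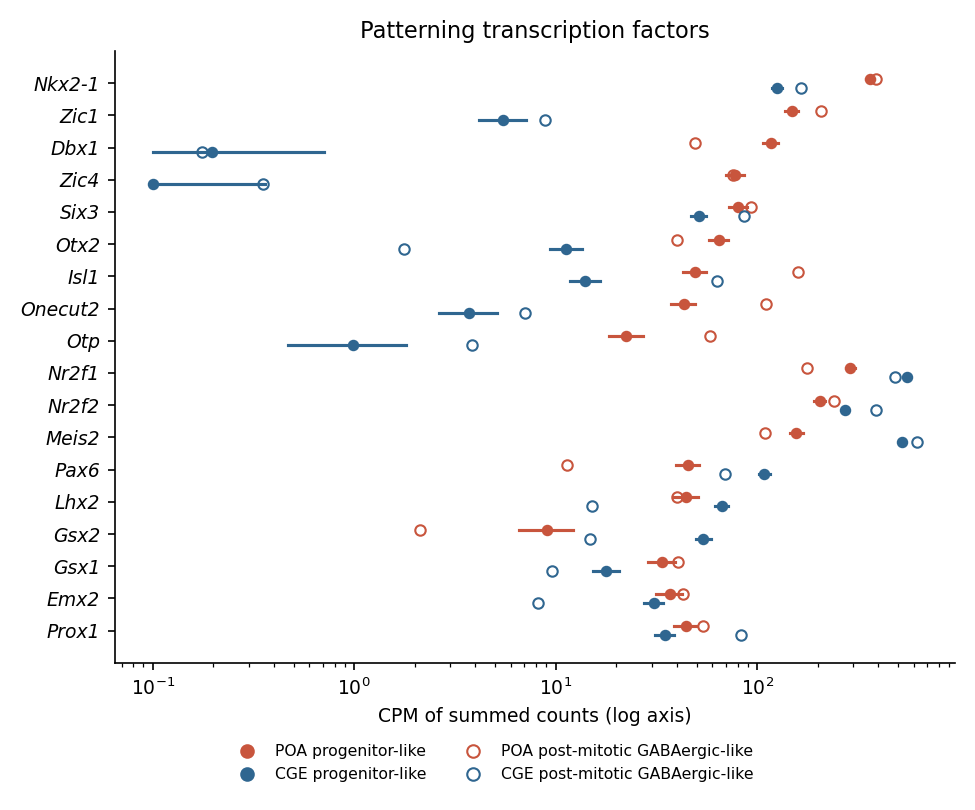
Levels of 18 patterning factors in CPM of summed counts (x axis, log scale). Filled points are progenitor-like cells with exact 95% intervals of counting error, open points the post-mitotic GABAergic-like cells of the same libraries, and values below 0.1 CPM are drawn at 0.1. Dbx1, both Zic genes, Otp and Onecut2 lie at 5.50 CPM or less in the CGE progenitor-like cells, while Meis2, Nr2f1 and Gsx2 lie higher in CGE.

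Ligands and receptors of the signalling pathways were read by pathway. Shh itself (chromosome 5, 28456815 to 28467256, minus strand), the ventralizing ligand, was at 40.1 CPM (34.6 to 46.1) in POA and 1.87 CPM (1.12 to 2.91) in CGE, a log2 fold change of 2.08, and was found in 9.83% of POA and 0.428% of CGE thinned cells. Its receptor and transcriptional target Ptch1 was at 112 and 40.4 CPM (1.28). Gli3, whose repressor form opposes the pathway, was lower in POA at 16.8 and 55.4 CPM (-1.28), and the signal transducer Smo was level at 63.1 and 69.1 CPM (-0.11). These were the 4 of 12 Shh pathway genes compared, so that 2 were more than 2-fold higher in POA and 1 in CGE. Without the cells that held other-cell markers Gli3 came to -0.96, under 2-fold.

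Of 26 Wnt pathway genes 14 were compared, 3 higher in POA and 1 in CGE, with a median of 0.19. Besides Wnt8b, the ligand Wnt5a was at 34.7 CPM in POA and 11.2 CPM in CGE (1.08) and Tcf7l2, a transcription factor at the end of the pathway, at 98.8 and 36.2 CPM (1.24). Wnt5a was under 2-fold without the cells that held other-cell markers (0.66). Sfrp1, a secreted factor that binds Wnt proteins, was the 1 higher in CGE, at 67.6 and 197 CPM (-1.42). The receptor Fzd3 was at 53.4 and 21.8 CPM (1.00), beside the cut, and the ligand Wnt7b (0.26) and the effector Ctnnb1 (0.11) were close to level. The target gene Axin2 was at 15.4 and 18.5 CPM, below the 20 CPM needed.

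Fgf pathway genes had a median of 0.45, with 3 of 12 compared (17 in the list) more than 2-fold higher in POA and 0 in CGE. The ligands Fgf15 and Fgf17 were at 59.8 and 10.8 CPM (1.75) and at 21.2 and 0.196 CPM (1.61), where CGE had 2 counts of Fgf17 and the ratio was 108 (29.1 to 902). The feedback inhibitor Spry1 was at 28.8 and 7.46 CPM (1.15). The receptors went apart, Fgfr1 at 125 and 95.4 CPM (0.36) and Fgfr2 at 31.6 and 68.9 CPM (-0.92). Notch pathway genes differed less, since of 14 compared (19 in the list) 0 were higher in POA and 1 in CGE, the ligand Jag1 at 14.4 and 40.9 CPM (-1.06, and -0.93 without the cells that held other-cell markers), with a median of 0.09. The receptor Notch1 was at 191 and 198 CPM and the ligand Dll1 at 42.3 and 42.1 CPM. None of 10 Bmp and Tgfb genes compared (17 in the list) passed 2-fold, with a median of 0.19, and the target gene Id3 came nearest at 159 and 77.2 CPM (0.95). Only 2 of 16 retinoic acid genes were compared, among them the binding protein Crabp2, at 26.9 and 11.4 CPM (0.79).

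Of 16 Eph receptors and ephrins 12 were compared, 2 higher in POA and 2 in CGE, with a median of 0.29. These proteins act in cell sorting and axon guidance by contact. The ligands Efna5 and Efnb3 were higher in POA, at 108 and 28.2 CPM (1.63) and at 75.8 and 32.1 CPM (1.03), and the receptors Epha3 and Epha5 in CGE. Without the cells that held other-cell markers Efna5 was at 1.11 and Efnb3 at 0.74, under 2-fold, and Efnb3 was at 0.60 among cells without Top2a or Mki67. Epha4 was at 82.2 and 168 CPM (-0.95), just under 2-fold.

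Genes of S, G2 and M phase were lower in POA progenitor-like cells, most by less than 2-fold. This was not particular to progenitor-like cells. In the post-mitotic GABAergic-like cells the list medians were -0.81 for S phase and -0.87 for G2 and M phase. Of 43 S phase genes 41 were compared, and 41 of 41 had a log2 fold change below 0, with a median of -0.69, while over all genes 51.1% were above 0. Past 2-fold were Cdca7, at 94.3 and 223 CPM (-1.16), and Ung, at 24.5 and 60.8 CPM (-1.04). The polymerase clamp Pcna was at 136 and 229.8 CPM (-0.71) and the ribonucleotide reductase subunit Rrm2 at 254 and 416 CPM (-0.69). All 51 G2 and M phase genes compared (52 in the list) were below 0 as well, with a median of -0.42 and 0 past 2-fold, among them the mitotic kinase Cdk1 at 179 and 285 CPM (-0.65). Top2a and Mki67, which are among the genes that chose the cells, were at 459 and 763 CPM and at 136 and 247 CPM.

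Counted per cell, the median thinned cell held 6 S phase UMIs in POA (quartiles 3 and 14) and 13 in CGE (7 and 23), and 15 G2 and M phase UMIs in POA (9 and 43.5) against 33 in CGE (16 and 61). Top2a and Mki67 are 2 of the 7 progenitor genes of the rule, so their shares describe the cells chosen. A UMI of either was found in 241 of 539 thinned POA cells, 44.7% (40.5 to 49.0), and in 824 of 1169 CGE cells, 70.5% (67.8 to 73.1). Without thinning the shares were 54.5% and 80.5%. The S phase median was -0.44 among cells with a Top2a or Mki67 count and -0.997 among cells without, with 41 of 41 genes below 0 in both. For the G2 and M phase genes the medians were -0.12 and -0.30, with 40 and 43 of 51 genes below 0. Leaving Top2a and Mki67 out of the rule left 485 POA and 1107 CGE cells, with 130 and 45 genes past 2-fold, and the medians of the S phase and of the G2 and M phase lists were then -0.75 and -0.40. Without the cells that held other-cell markers they were -0.40 and -0.35.

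**Figure D4:**
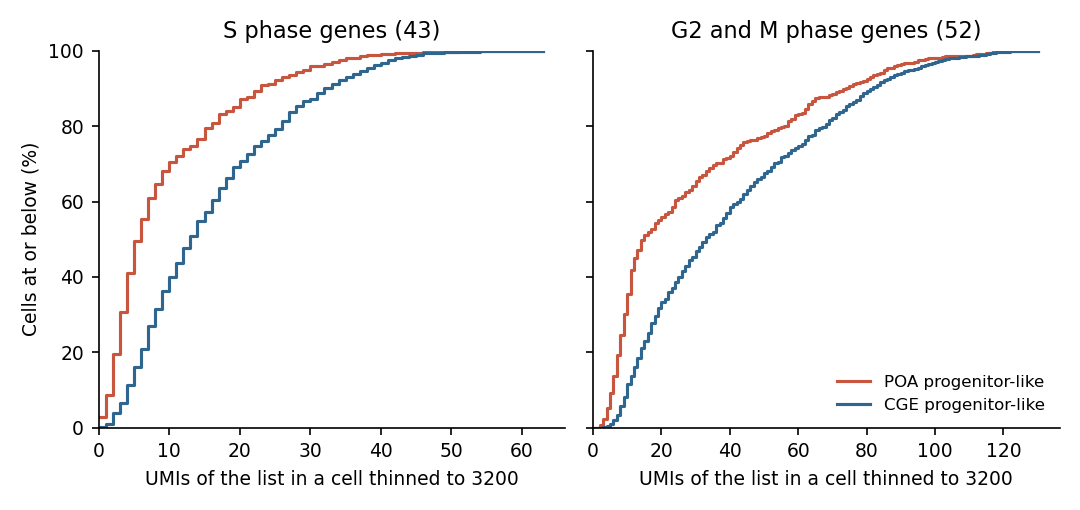
Cumulative share of progenitor-like cells (y axis, percent) with at most a given number of UMIs of the S phase list of 43 genes (left) or of the G2 and M phase list of 52 genes (right), after each cell was thinned to 3200 UMIs. The POA curve lies left of the CGE curve over most of both panels, with medians of 6 against 13 and 15 against 33 UMIs.

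Among G1 genes the 2 regions differed gene by gene. Of 11 compared (12 in the list), the inhibitor Cdkn1c (chromosome 7, 143458339 to 143461050, minus strand) was higher in POA at 464 CPM (445 to 484) in POA and 54.9 CPM (50.4 to 59.6) in CGE, a ratio of 8.46 (7.70 to 9.29), and the inhibitor Cdkn2c in CGE at 26.9 and 70.2 CPM (-1.12). The D-type cyclin Ccnd2 (chromosome 6, 127125162 to 127152193, minus strand) was at 552 CPM (531 to 573) in POA and 1101 CPM (1081 to 1121) in CGE (-0.98) and was found in 54.7% of POA and 85.1% of CGE thinned cells, whereas Ccnd1 was at 199.7 and 151 CPM (0.38). The median of the list was -0.26. Cdkn1c was higher in POA among cells with Top2a or Mki67 (2.71) and without (3.01). Cdkn2c was under 2-fold in each of these classes (-0.82 and -0.97) and without the cells that held other-cell markers (-0.91). Of the genes named Hist, a family chosen after its values were seen, 9 were compared and 4 were more than 2-fold higher in CGE, Hist1h2ap, Hist1h2ae (-1.33), Hist1h1b (-1.20) and Hist1h1e (-1.07).

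Imprinted genes, a list chosen after Cdkn1c and Dlk1 were seen among the leading genes, were mostly higher in POA. Of 41 genes 26 were compared, 24 were above 0, and 13 were more than 2-fold higher in POA and 0 in CGE, with a median of 1.02. Over all genes 51.1% were above 0, and 1.83% were more than 2-fold higher in POA and 0.552% in CGE. The shift was not particular to progenitor-like cells, since the list median was 0.91 in the post-mitotic GABAergic-like cells. The noncoding RNA Meg3 was at 2833 CPM in POA and 878 CPM in CGE (1.68), the membrane protein Nnat at 5296 and 1775 CPM (1.57), the growth suppressor Ndn at 653 and 215 CPM (1.56) and the zinc finger protein Peg3 at 269 and 64.5 CPM (1.90). Magel2 was at 36.6 and 2.06 CPM (1.95). The exceptions were H19, at 58.4 and 96.0 CPM (-0.63), and the adaptor Grb10, at 119 and 147 CPM (-0.29). Since 2 genes of the list had led to its choice, the count is a description.

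Lists of cell state gave these values. Of 14 radial glia genes compared 0 were more than 2-fold higher in POA and 1 in CGE (Pax6), with a median of -0.19. The matrix protein Tnc, at 40.3 and 86.1 CPM (-0.94), and the secreted protein Mfge8, at 246 and 424 CPM (-0.76), were lower in POA within 2-fold, and the membrane protein Ttyh1 was higher there at 329.8 and 214 CPM (0.60). Of 11 basal progenitor genes compared, the homeodomain factor Dlx2, at 127 and 269 CPM (-1.03), and the zinc finger factor Sp9, at 10.1 and 34.8 CPM (-1.16), were higher in CGE, both known from GABAergic progenitors, and the median was -0.18. Dlx2 came under 2-fold without the cells that held other-cell markers (-0.64), among cells with Top2a or Mki67 (-0.81) and with these 2 genes left out of the rule (-0.88), and Sp9 did in the last of these (-0.93). Their partner Dlx1 was at 159 and 306 CPM (-0.90). Of 11 neuronal genes compared 10 were above 0 and 2 were more than 2-fold higher in POA, the neurofilament-related Ina at 132 and 41.2 CPM (1.47) and the microtubule protein Mapt at 192 and 88.5 CPM (1.03), with a median of 0.48. Without the cells that held other-cell markers both were under 2-fold, Ina at 0.96 and Mapt at 0.42, and Mapt was at 0.85 without the 5% of cells with most UMIs. Of 7 oligodendrocyte and astrocyte genes compared, the matrix proteoglycan Bcan was higher in POA at 102 and 37.8 CPM (1.23, and 0.90 among cells with Top2a or Mki67), and Olig1 came next at 112 and 53.5 CPM (0.94). None of 8 immediate early and heat shock genes passed 2-fold, with a median of 0.14.

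Of 13 genes that the study names 10 were compared, and Nkx2-1 and Tox2 were more than 2-fold higher in POA and Epha3 in CGE. Nes and Dcx, also in this list, are among the genes that chose the cells. Tox2, an HMG-box factor (chromosome 2, 163203125 to 163324170, plus strand), was at 44.8 CPM (39.0 to 51.2) in POA and 13.6 CPM (11.4 to 16.0) in CGE (1.22), in 14.7% of POA and 5.22% of CGE thinned cells. Its relatives were close, Tox at 68.8 and 51.4 CPM (0.36) and Tox3 at 94.3 and 110.0 CPM (-0.20). The homeodomain factors Hmx2 and Hmx3, which mark the lineage in POA, were low. Hmx2 was at 8.22 CPM in POA with 1 count in CGE, a ratio of 83.7 (14.2 to 3388), and Hmx3 at 3.90 CPM in POA with 0 counts in CGE. The serotonin receptor Htr3a was at 22.0 and 47.4 CPM (-0.84), and the bHLH factor Npas3 was level at 101 and 97.4 CPM (0.05), while Npas1 stayed at 3.70 and 3.93 CPM.

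The POA progenitor-like cells were not uniform. Among 539 thinned cells, 80 held a Wnt8b UMI and 459 did not, and other factors were unevenly spread between them. Dbx1 was found in 51.2% (39.8 to 62.6) of cells with Wnt8b and 9.15% (6.67 to 12.2) of cells without it, and Neurog2 in 51.2% (39.8 to 62.6) of cells with Wnt8b and 11.5% (8.77 to 14.8) of cells without it. Epha3 was found in 30.0% against 9.59%. Other genes went the other way, Nr2f2 (16.2% against 39.9%), Dlx2 (10.0% against 24.6%) and Meis2 (12.5% against 30.5%). Dbx1 and Neurog2 were thus each more frequent in the cells with Wnt8b, and Nr2f2, Dlx2 and Meis2 less frequent. Nkx2-1 was found in 43.8% against 57.3% of the same cells. Neurog2 is one of the glutamatergic markers used above. Whether the cells with Wnt8b belong to another cell type or to tissue beside the POA was not tested.

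The split by Zic1 gave other values. It was detected in 156 of the 539 cells, where Zic4 was found in 38.5% (30.8 to 46.6) of cells with Zic1 and 7.05% (4.70 to 10.1) of cells without it and the ligand Fgf15 in 29.5% (22.5 to 37.3) of cells with Zic1 and 7.83% (5.35 to 11.0) of cells without it. Pax6 was also more frequent with Zic1 (16.0% against 6.53%), and Dbx1 was less frequent (8.97% against 18.0%). Wnt8b was found in 9.62% (5.48 to 15.4) of cells with Zic1 and 17.0% (13.3 to 21.1) of cells without it, with intervals that overlap, and 15 cells held both. Cells with Nkx2-1 (298) held Pax6 in 4.03% against 15.8% and Nr2f1 in 37.9% against 56.0%, and cells with Nr2f2 (196) held Nr2f1 in 70.9% against 31.8% and Pax6 in 18.4% against 4.08%. Genes of low level are missed in many cells that express them, so these shares are of detected UMIs and the cells come from 1 library.

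**Figure D5:**
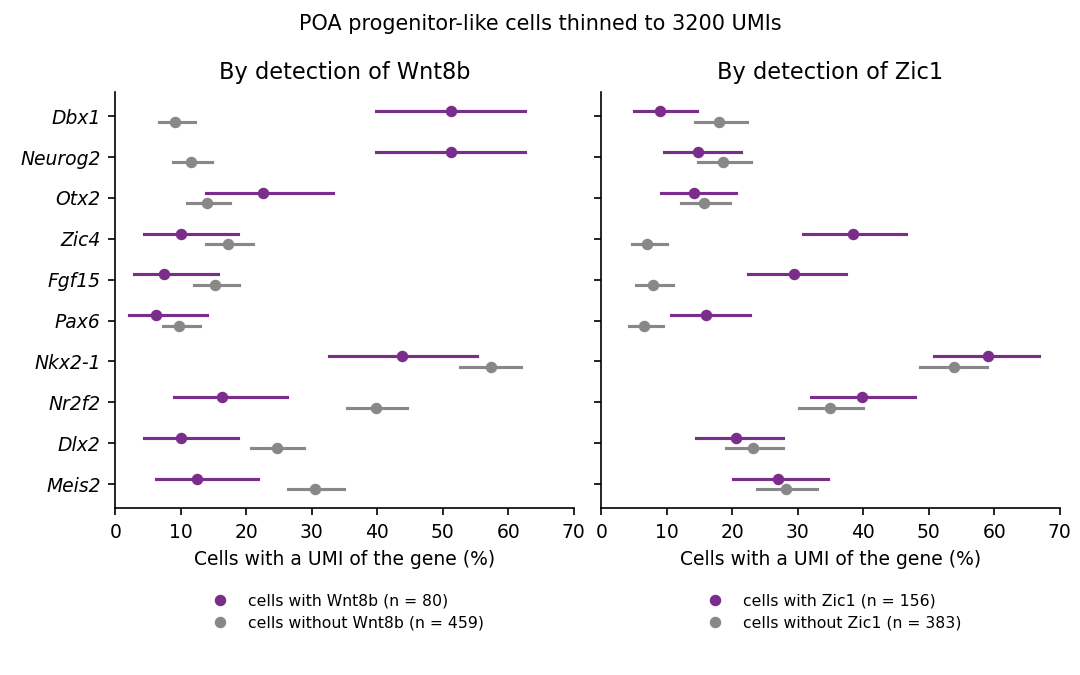
Percent of POA progenitor-like cells, thinned to 3200 UMIs, with a UMI of each gene on the y axis, split by detection of Wnt8b (left, 80 with and 459 without) or of Zic1 (right, 156 with and 383 without). Bars are exact 95% intervals of counting error. Dbx1 and Neurog2 lie higher in cells with Wnt8b and Nr2f2 and Dlx2 lower, and Zic4 and Fgf15 lie higher in cells with Zic1.

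The CGE cells were split in a like way by Nkx2-1. Of 1169 thinned cells 243 held it, and in these the interneuron factor Lhx6 was found in 13.6% (9.54 to 18.5) of cells with Nkx2-1 and 4.21% (3.01 to 5.71) of cells without it. Dlx1 was also more frequent with it (63.0% against 40.4%), and Pax6 (9.47% against 28.6%), Epha3 (25.1% against 49.0%) and Sfrp1 (21.0% against 44.4%) less. Zic1 was rare in both (1.65% against 1.40%).

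The post-mitotic GABAergic-like cells of the same 2 libraries, 1558 in POA and 2738 in CGE, were compared in the same way. Their name rests on the rule alone, and the class was not free of cell cycle transcripts. Its median thinned cell held 10 G2 and M phase UMIs in POA and 14 in CGE, against 15 and 33 in progenitor-like cells. Hist1h2ap was found in 9.18% of the POA and 31.7% of the CGE cells of this class. The part of dividing cells in its values was not tested. Of these cells, thinned, 63.2% in POA and 23.5% in CGE held a count of any other-cell list, 40.4% and 5.45% of the Cajal-Retzius and 34.7% and 13.7% of the glutamatergic list, and their part in the values was not tested. They share the libraries, so their values are set side by side and are no separate support. Zic1 had a log2 fold change of 3.53, Dlk1 of 3.07 and Nkx2-1 of 1.20 in post-mitotic cells, near those in progenitor-like cells. Nhlh2 (3.46) had a larger one, and Dbx1 (2.53), Wnt8b (1.61) and Spon1 (1.54) had smaller ones. The levels of these 3 in post-mitotic cells were 48.9, 20.6 and 29.2 CPM in POA and 0.176, 0.0586 and 3.51 CPM in CGE. At such levels the 10 CPM added lowers the log2 value, so the smaller values do not show smaller ratios. Of the leading CGE genes, Meis2 (-2.39) and Epha5 (-2.47) differed more in post-mitotic cells, and Lix1 (-0.56) less. Lrp4 (1.77 CPM in POA and 5.45 in CGE, -0.39) and Gsx2 (2.13 and 14.9 CPM, -1.04) were below 20 CPM there. Their log2 values are lowered by the 10 CPM added and cannot be set against those of progenitor-like cells.

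POA progenitors were also captured in the series on microfluidic C1 chips, as FlashTag+ cells. An injected dye marks cells that divided at the ventricular surface, and these were taken 2 h after injection in wild-type embryos. Per the study's methods, CD1 mice were used for the dye injections, and only the brightest cells were sorted. Of these 352 cells 301 met the same rule, 85.5% (81.4 to 89.0), at a median of 278639 UMIs, so that levels cannot be set against the droplets. A count of Zic1 was found in 61.8% of the 301 cells, of Zic4 in 45.8%, of Spon1 in 72.1%, of Dlk1 in 86.0% and of Cdkn1c in 79.4%. Wnt8b was found in 10.6%, Dbx1 in 9.30% and Rmst in 3.65%. Although UMIs per cell were many times those of the droplets, median genes per cell were 3546, against 2942 in POA droplet progenitor-like cells. Low shares here therefore do not show that a gene was absent. These 8 leading POA genes thus differed in how often the cells held them, with Rmst in the fewest cells.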

How the data were processed

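The droplet tables hold the authors' deposited counts, UMIs per gene and cell, made with Cell Ranger on the mouse genome mm10 and left unnormalized. Per the methods, the authors discarded cells with fewer than 1000 genes or over 15% mitochondrial reads and clusters of non-GABAergic cells. The FlashTag+ chip table also holds counts. Every column of values was used, with 0 left out.

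With 1 library per region no test was run. Counts of the 1875 progenitor-like cells were summed per library, without 9 haemoglobin genes, to 4866681 UMIs in POA and 10183574 in CGE, and expressed as CPM, with Poisson intervals (exact, 95%). Shares have Clopper-Pearson 95% intervals and were computed after thinning to 3200 UMIs (seed 1), which kept 539 POA and 1169 CGE cells. A gene was compared at 20 CPM in the higher library, and 10 CPM were added before log2. Folds against 0 counts use a floor of 3 counts per library. Named genes were the members of 27 lists, the genes of the paper, and the 10 largest log2 fold changes per direction among genes of at least 50 CPM whose thinned share lay in the same direction, without rule, haemoglobin, mitochondrial, ribosomal protein and sex-linked genes. Some genes of these lists and counts are not reported here. The cells and lists were chosen with earlier results of these data known, and pairs of genes compared in cells likewise. The imprinted and histone lists were chosen after seeing the data. No doublet caller was run, and the 5% of cells with most UMIs were left out as an alternative. Positions are from GENCODE M21 (GRCm38). The work used pandas 2.3.3, scipy 1.17.1, numpy 2.4.6 and matplotlib 3.10.9 under Python 3.11.15. The folds and the intervals of ratios were tested on simulated counts, with less CPM added than the 10 used here. Thinning was checked on the CGE counts, and the class rule was not tested. Alternatives were other class rules, measures, CPM added, filters, scalings and subsets of cells.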

Additional observations from a re-analysis of the deposited data

Results flagged for a closer look

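The difference between regions went in opposite directions in the 2 classes of cell for 2 genes of the lists. Foxp2, a forkhead transcription factor, had a log2 fold change of POA over CGE of 0.72 in progenitor-like cells and of -0.74 in post-mitotic GABAergic-like cells, a difference of 1.46. Wnt5a, a secreted Wnt ligand, had 1.08 and -0.79, a difference of 1.87. The difference between classes was not tested, since each region is 1 library.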

How the results depend on the processing

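All 20 leading genes kept their direction under every alternative run. The POA share of progenitor-like cells was 19.7% when the progenitor sum had to be at least 2 times the neuronal sum, 23.2% when it had to be at least 5 counts above it and 23.0% without Top2a and Mki67 in the rule. The CGE share was then 26.4%, 29.4% and 26.9%, and it was 35.2% without Gad1, Gad2, Dlx5 and Dlx6 and 34.7% on thinned counts with ties as progenitor-like. The numbers of genes past 2-fold in POA and CGE were 201 and 66 by the log2 ratio of thinned shares, 226 and 69 with 1 CPM added, and 16 and 4 with 100 CPM added. At least 50 CPM left 73 genes in POA, and cells without Top2a or Mki67 gave 87 in CGE. The cause of these shifts was not tested, apart from the CPM added and the filter, which act by construction. The other 44 values of these shares and gene numbers, each under 1 alternative, stayed within 1.5 times the main count or within the interval of the main share. With 100 CPM added, 6 POA and 4 CGE leading genes stayed past 2-fold, and by thinned shares 9 in CGE. The medians of the Wnt, Notch and Eph lists lay near 0 and crossed it in some settings, to -0.01 for Wnt among cells without Top2a or Mki67 and to -0.05 for Notch and -0.08 for Eph at 50 CPM or more. No paired analysis was possible because each region is 1 library, and for the same reason no replicate could be left out. Depth limits shares of low genes: 0 of 1169 thinned CGE cells allows up to 0.257% at a floor of 3 cells.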
